A study of Mus musculus with 4 samples.

Results

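The genes described here are Pvt1, a long noncoding RNA (lncRNA) gene, and 5 genes of the Myc family and its closest partners: Myc, Mycn, Mycl, Max and Mga. Members were the DHX9 peaks of the deposited list whose midpoint lay in the body of 1 of these 6 genes, or between the end of Myc and the start of Pvt1 on chromosome 15. There were 152 such peaks of 59563 in the list: 111 in Pvt1, 37 in Mga, 1 in Mycn and 3 in the interval, with none in Myc, Mycl or Max. A peak here is a stretch of RNA found with the RNA helicase DHX9, as called by the authors from FLASH libraries. FLASH is a form of CLIP-seq, in which ultraviolet light links RNA to protein, the protein is pulled down and the linked RNA fragments are sequenced. The cells were WT26, a male mouse embryonic stem (ES) cell line of mixed C57BL/6x129sV background that was grown with leukemia inhibitory factor and without feeder cells. A rabbit antibody to DHX9 was used in 2 samples and rabbit IgG, as the control, in 2, labelled as biological replicates A and B; all 4 came from untreated cells of this 1 line.

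The 1 list for the series states where each peak begins and ends and on which strand it lies. It carries no measure of peak strength and no reads, so that no value per replicate, no level in the IgG samples and no error between pulldowns can be given, and the depth behind a peak is unknown. Peaks can be called only on RNA that the cells make, and more RNA and more DHX9 per RNA cannot be told apart. Coordinates are on mm10, which represents assembly GRCm38. All 10 ES cell marker genes examined held peaks, among them Pou5f1 with 12 and Nanog with 13. Of 6 fibroblast markers, Loxl1 held 1 peak and the other 5, including Col1a1 and Col1a2, held none; this share, 16.7%, is near the 22.8% of all protein-coding genes that held a peak, so that it says little about feeder cells.

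Myc, Mycn and Mycl encode transcription factors that drive growth and proliferation, and each binds DNA as a pair with Max. Max also pairs with the Mxd proteins, Mnt and Mga, which mostly repress the same targets. Pvt1 lies downstream of Myc, is transcribed into spliced and circular RNAs, and is often amplified together with Myc in tumours; in ES cells Mycn and Myc support self-renewal, and Mga belongs to a variant Polycomb complex that silences germline genes.

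Pvt1 held many DHX9 peaks, most of them in the first 20% of its gene body. The gene body spans 222 kb (chromosome 15, 62037986 to 62260215; gene 19296), and its 111 peaks came to 0.50 per kb and covered 23.7 kb, or 10.6% of the gene body. All 111 were on the plus strand (100%; 95% Wilson interval 96.7 to 100%), and none lay in another annotated gene. Intervals on shares of peaks cover counting error only, and neighbouring peaks are not independent. Peak widths ran from 98 to 487 bases with a median of 197, close to the median of 196 over the whole list.

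Read along the strand of the peaks, Pvt1 had 77 of its 111 peaks in the first 20% of the gene body (69.4%; 95% Wilson interval 60.3 to 77.2%), a stretch of 44.4 kb with 1.73 peaks per kb. The next 20% held 22 peaks (0.49 per kb), the middle 20% held 4 and the 20% after that held 8. The last 20% held 0 of 111 (95% Wilson interval 0 to 3.35%). Within the first 20% the density was highest in its second part: the first 10% of the gene body held 33 peaks (1.48 per kb) and the second 10% held 44 (1.98 per kb). Beyond the first 20% the density was lower. A small rise between 133 and 156 kb held 7 peaks, 6 of them close together 145 to 148 kb from the start. Peak width was similar in both parts: the median was 196 bases in the first 20% and 207 in the rest. The spacing differed, with a median distance to the preceding peak of 155.5 bases in the first 20% and 754 bases beyond it.

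**Figure D1:**
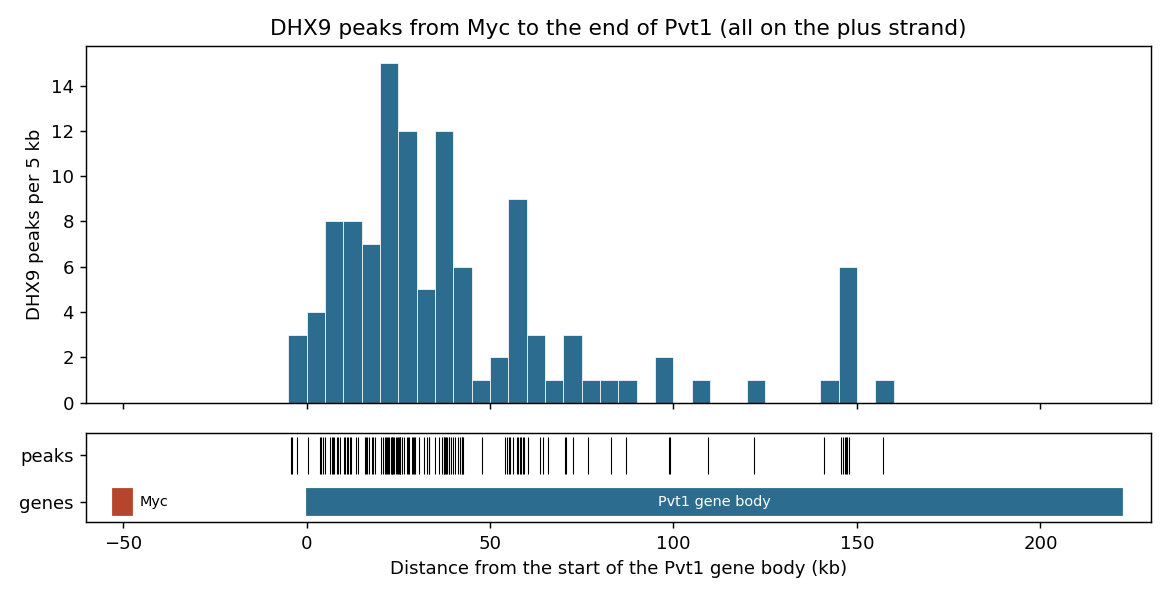
DHX9 peaks per 5 kb (upper panel) and each peak as a line (lower panel) against the distance in kb from the start of the Pvt1 gene body, with the bodies of Myc and Pvt1 drawn to scale. Of the 111 peaks of Pvt1, 77 lie in its first 44.4 kb. Another 3 peaks lie just before its start, and no peak lies over Myc or in the last 65.0 kb of Pvt1.

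The first peak of Pvt1 began 0.12 kb inside the gene body (62038109 to 62038379), and the last ended at 62195206, with its midpoint 157 kb from the start. The 65.0 kb after it, 29.3% of the gene body, held no peak. The histone pseudogene Macroh2a3 (62217541 to 62219451), the 1 other annotated gene inside Pvt1, lies in that empty stretch and held none. The widest peak, of 487 bases, lay 27.3 kb from the start (62065000 to 62065486), within the densest part of the gene. The longest stretch without a peak before the last one was 18.6 kb, and it ended at a peak of 468 bases at 62178710 to 62179177.

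The peaks of Pvt1 lay in runs. With a run taken as peaks separated by at most 1000 bases, there were 23 runs, of which 11 were single peaks, and the 8 runs of at least 3 peaks held 92 of the 111. The longest run had 28 peaks in 10.5 kb (62058243 to 62068736), or 2.67 per kb, and lay 20.3 to 30.8 kb from the start. The second had 18 peaks in 7.86 kb (62072970 to 62080828) and the third 13 in 5.69 kb (62044428 to 62050113). Together these 3 runs held 59 peaks, all in the first 42.8 kb. Away from the start, a run of 12 lay 53.9 to 60.5 kb in, and a run of 6 (62183468 to 62186003) stood alone 145 to 148 kb in. The number of runs depended on the distance allowed: it was 37 at 500 bases and 15 at 2000 bases. At 2000 bases 1 run took in 76 peaks (68.5%), from 3.37 to 42.8 kb, so that nearly all peaks near the start formed 1 block of 39.5 kb.

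Between Myc and Pvt1 the list held 3 peaks, all on the plus strand and all close to Pvt1. The interval is 47.6 kb long (61990362 to 62037985) and contains no annotated gene. The peaks lay at 62033579 to 62033702, 62033969 to 62034149 and 62035388 to 62035528, with their midpoints 4.35, 3.93 and 2.53 kb before the annotated start of Pvt1. Their widths were 124, 181 and 141 bases, all under the median of the list, and 2580 bases separated the last of them from the first peak of Pvt1. The first 43.2 kb after the end of Myc had no peak. Myc and Pvt1 stood in a wide empty region: the nearest peak before Myc was 1929 kb away, and the nearest after the end of Pvt1 was 1671 kb away, in Cyrib on the minus strand. Pvt1 alone held 4.86% of the 2286 peaks of chromosome 15.

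No lncRNA gene held more peaks than Pvt1. Among 12727 lncRNA genes 550 (4.32%) held at least 1 peak, with a median of 2 in those genes. After Pvt1 with 111 came Gm51805 with 66, Gm40309 with 58, Platr22, named as a pluripotency-associated transcript, with 50, and Gm40592 with 48. Only genes annotated as lncRNA were ranked. Tsix, annotated as antisense RNA and so left out, held 53 peaks. Gm51805 had 38 peaks that lay in no other gene, Platr22 had 50, and Gm40309 and Gm40592 had 0. Of 2695 peaks in lncRNA genes 4.12% were in Pvt1, and of the 1144 of these that lay in no other gene 9.70% were. Pvt1 stood first among lncRNA genes with closely spaced peaks merged (93, with Gm40309 next at 42) and with peaks under the median width left out (58, with Gm51805 next at 53). By peaks per kb it did not lead: among 72 lncRNA genes with at least 10 peaks, Pvt1 ranked 55th.

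**Figure D2:**
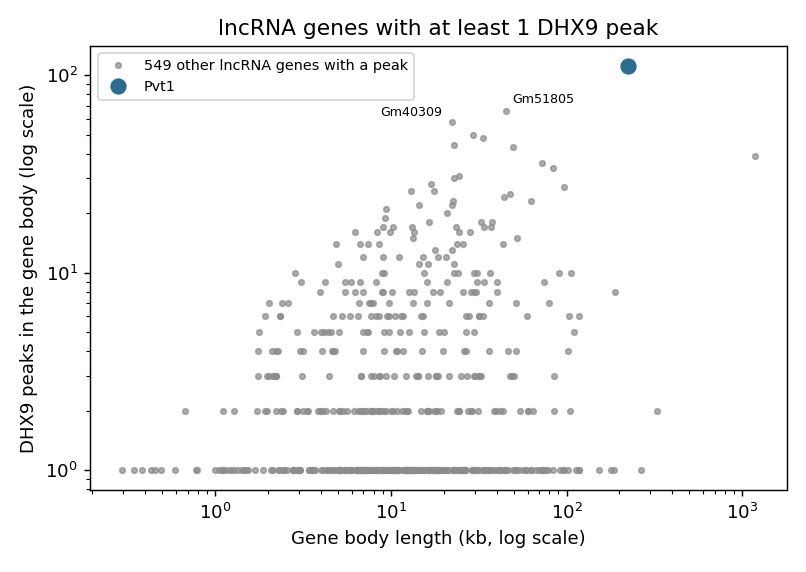
Number of DHX9 peaks against gene body length, both on log scales, for the 550 lncRNA genes with at least 1 peak. Pvt1 (large point, 111 peaks over 222 kb) lies above the others, and the genes next in count are shorter.

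Pvt1 also had more peaks than protein-coding genes of its length. Of the 50 protein-coding genes nearest to it in length (219 to 226 kb), 18 held a peak, and the most was 76 in Gli2, a transcription factor of Hedgehog signalling. None of the 50 had more peaks per kb than Pvt1. With the nearest 100, of which 37 held a peak, 1 gene was denser: Cobl, an actin nucleator gene, with 168 peaks and 0.74 per kb. Of the 50 lncRNA genes nearest in length, 3 held peaks and the most was 8. These are descriptions of 1 list, and lengths but not RNA amounts were matched.

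The crowding near the start was stronger in Pvt1 than in most long genes with many peaks. Among the other 207 genes with at least 50 peaks, at least 90% of them on 1 strand, the median share in the first 20% of the gene body was 28.8% (quartiles 20.6 and 39.8%). Among the 65 of these of at least 100 kb it was 36.4% (quartiles 24.8 and 50%), against 69.4% in Pvt1. All these shares were counted from the annotated start of the gene body. Other starts within the gene bodies were not tried for these genes. The share was higher in 3 of the 207: Pitpnc1, a lipid transfer protein gene, with 79.4%, the chromatin remodeller gene Atrx with 76.4%, and the cytoskeletal linker gene Macf1 with 69.6%. Among the genes whose peak shares over 10 equal segments of the gene body were most like those of Pvt1 were Ntn1, the guidance cue netrin-1 (Pearson r = 0.94 across the 10 segments) and the splicing factor gene Luc7l2 (r = 0.94). Ntn1 also held 111 peaks, over 177 kb, and Luc7l2 held 50 over 58.6 kb. These correlations describe genes of 1 list and share its peak calling. In the stretch after the last peak, however, Ntn1 and Luc7l2 differed from Pvt1. That stretch was 1.11% of the gene body in Ntn1 and 6.81% in Luc7l2, against 29.3% in Pvt1. A longer empty end than in Pvt1 was found in 9 of the 207 genes, among them Atrx with 29.9%.

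**Figure D3:**
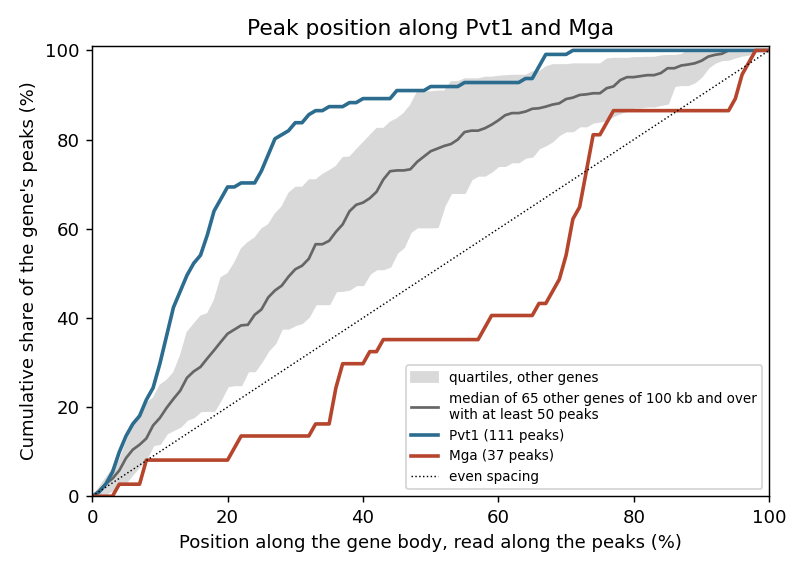
Cumulative share of a gene's peaks (%) against position along the gene body (%), read along the strand of the peaks, for Pvt1, Mga and the 65 other genes with 50 or more peaks and a length of 100 kb or more (median line and quartile band). Pvt1 reaches 69.4% of its peaks at 20% of its length, where the median of the other genes is 36.4% and Mga has 8.11%.

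Of the 5 protein-coding members 2 held a peak (40%), while 22.8% of all 21900 protein-coding genes did. The median over these 5 genes was 0 peaks, as it was over all protein-coding genes. With so few genes, nothing particular to the family can be read from this share.

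Myc (chromosome 15, 61985341 to 61990361; 5.02 kb) had no peak, and none lay within 1000 bases of it. Mycl (chromosome 4, 122995588 to 123002490; 6.90 kb) had none either. Mycn (chromosome 12, 12936093 to 12941836; 5.74 kb) had a single peak on the minus strand at 12939750 to 12940286. That peak was 537 bases wide, wider than any of Pvt1 or Mga, covered 9.35% of the gene body and lay 1.82 kb from the start of the gene. In the length decile of these 3 genes, 11.3% of protein-coding genes held a peak, against 22.8% of all. Of the 50 protein-coding genes nearest in length, 5 had a peak for Myc and 8 for Mycn. For Mycl it was 11 of the 50 (22%), near the share of all protein-coding genes. Max (chromosome 12, 76937269 to 76962323; 25.1 kb), the shared partner, had none, while 12 of its 50 neighbours in length had one. The absence of a called peak does not show that these RNAs are unbound or not made.

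Mga, which encodes a large protein with both a T-box and a Max-binding domain, held 37 peaks over 97.6 kb (chromosome 2, 119872503 to 119970129), or 0.38 per kb, and all were on the plus strand (100%; 95% Wilson interval 90.6 to 100%). Among the 50 protein-coding genes of nearest length 10 held a peak, and 1, Rabep1 with 40, held more than Mga. The peaks of Mga had a median width of 175 bases (90 to 459) and covered 7.51% of the gene body. In contrast to Pvt1, they did not crowd near the start: 3 of 37 lay in the first 20% of the gene body (8.11%; 95% Wilson interval 2.80 to 21.3%) and 17 between 60 and 80% of its length (45.9%; 31.0 to 61.6%). The Wilson intervals of Mga and Pvt1 for the first 20% do not overlap, but they count peaks as independent and no test of the difference was made. The pattern of Mga was set by 3 runs, which held 24 of its 37 peaks. The longest had 14 peaks in 6.05 kb (119938471 to 119944522), or 2.31 per kb, a local density near that of the runs of Pvt1. The others had 5 peaks each, at 119907041 to 119908234 and at 119965071 to 119967557, the latter ending 2.57 kb before the end of the gene. The first peak was at 119876108 to 119876306, and the widest, of 459 bases, at 119928991 to 119929449. An empty stretch of 17.9 kb separated the last run from the peaks before it.

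Where a gene starts bears on these positions, so the starts of both protein-coding members with peaks are printed here from the RefSeq promoter table (GRCm38.p6), 5′ to 3′ on the strand of the gene, with the first 50 transcribed bases in capitals. The window of Mycn is chr12:12941787-12942086 on the minus strand and that of Mga is chr2:119896978-119897277 on the plus strand.
Mycn: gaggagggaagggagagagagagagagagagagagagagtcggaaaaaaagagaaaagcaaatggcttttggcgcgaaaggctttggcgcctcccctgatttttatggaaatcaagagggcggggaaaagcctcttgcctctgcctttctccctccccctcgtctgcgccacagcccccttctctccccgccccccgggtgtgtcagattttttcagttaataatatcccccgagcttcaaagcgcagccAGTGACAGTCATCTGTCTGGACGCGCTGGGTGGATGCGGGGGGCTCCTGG
Mga: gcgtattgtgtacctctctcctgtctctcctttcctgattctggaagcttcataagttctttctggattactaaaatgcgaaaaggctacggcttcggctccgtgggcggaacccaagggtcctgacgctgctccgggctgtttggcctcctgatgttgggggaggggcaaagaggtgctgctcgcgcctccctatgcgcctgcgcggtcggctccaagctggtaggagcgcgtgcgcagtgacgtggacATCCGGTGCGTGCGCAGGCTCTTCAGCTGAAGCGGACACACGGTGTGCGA
No peak overlapped either window; 423 of 32851 such windows in the table (1.29%) overlapped a peak on the strand of the gene. The start of Mga in this table (119897228) lies inside the gene body. Of the 37 peaks 5 lay before that start and 32 after it, the first of these 7.45 kb downstream. Counted from that start, 18.8% of the 32 peaks lay in the first 20% of the remaining length. Pvt1 has no entry in the promoter table, so the share in its first 20% could not be recounted in this way.

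**Figure D4:**
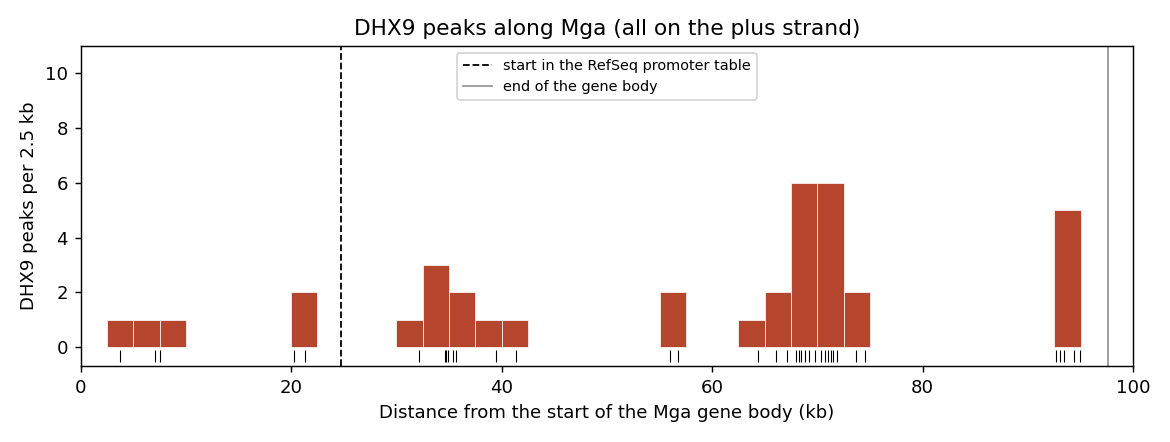
DHX9 peaks of Mga per 2.5 kb against the distance in kb from the start of the gene body, with each peak as a short line under the axis and the start of the RefSeq promoter table dashed. The 14 peaks of the longest run lie 66.0 to 72.0 kb from the start, and 5 peaks lie before the dashed line.

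Peaks followed the strand of the genes. In the 10 members and network genes that held a peak and have a strand in the promoter table, all 132 peaks were on the strand of the gene. Across 1703 genes with at least 5 peaks, all in no other gene, 99.3% of 31823 peaks were. For Pvt1 the direction was taken from its peaks.

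Among 18 other genes of the Myc network 9 held a peak (50%), against 22.8% of all protein-coding genes and a mean of 26.2% over the length deciles of these genes. The median was 0.5 peaks per gene, against 0 over all protein-coding genes. With at least 3 peaks required, 7 of the 18 remained, against 14.8% of all protein-coding genes. RNA amounts were not matched, and the list was chosen with earlier results of these data known.

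The repressors that pair with Max and the Mlx branch held a peak in 1 of 5 and 1 of 3 genes (20% and 33.3%), shares not far from the 22.8% of all protein-coding genes. Of the other 10 genes of the list 7 held a peak (70%), so that the higher share of the whole list came from these. Of Mxd1, Mxd3, Mxd4, Mxi1 and Mnt, which encode these repressors, Mxd3 held 3 peaks on the minus strand and the other 4 held none. Of the parallel Mlx branch, which senses nutrients, Mlxip held 12 over 63.4 kb, and Mlx and Mlxipl held none. Of the 95 peaks in these 18 genes, 65 lay in 2 genes, Usp28 and Wdr5, set apart here for their counts. Usp28, a deubiquitinase that stabilises Myc, held 34 over 57.2 kb (chromosome 9, 48985319 to 49042517; 0.59 per kb). Wdr5, a chromatin protein that helps to recruit Myc to its targets, held 31 over 21.4 kb (chromosome 2, 27515147 to 27536535; 1.45 per kb), and its peaks covered 36.7% of the gene body. Usp28 and Wdr5 thus held numbers of peaks similar to that of Mga over shorter gene bodies.

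Fbxw7, the ubiquitin ligase subunit that Usp28 opposes, held 4 peaks over 164 kb. The coactivator scaffold gene Trrap and the cofactor gene Hcfc1 also held 4 each, Aurka, a kinase that stabilises N-Myc, held 2, and the large ubiquitin ligase gene Mycbp2 held 1 over 233 kb. Mycbp, Zbtb17, which encodes the Myc partner Miz1, and the kinase gene Pim1 held none. Mycbp2 is slightly longer than Pvt1, which held 111 peaks.

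**Figure D5:**
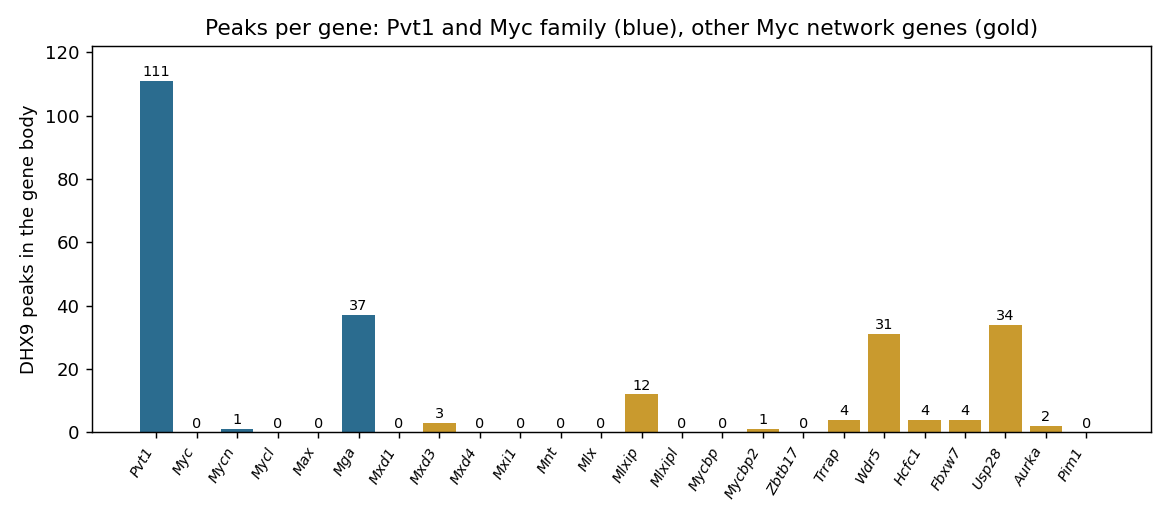
Number of DHX9 peaks in the gene body for Pvt1 and the Myc family genes (blue) and 18 other Myc network genes (gold), in the order of the lists. Pvt1 has 111 peaks, Mga 37, Usp28 34 and Wdr5 31, and 12 of the 24 genes have 0.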

How the data were processed

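FLASH libraries were made from 2 DHX9 and 2 IgG pulldowns of WT26 cells. The authors deposited 1 list of peaks, called with PEAKachu per the file's source column (version, settings and use of the IgG samples not given in the sources used here). Per the submitters' processing notes Bowtie2 2.2.6 was used, and hg19 and mm10 are named; mm10 was taken for this list from its chromosome names. The deposited values are positions (first base, last base, strand), with no score, and were used as given.

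Genes came from a RefSeq table of GRCm38.p6 (49980 placed genes) with start, end and biotype; introns and exons were not analysed here. A peak was assigned to each gene holding its midpoint, on either strand. No test was made, since the list has no values per sample. Alternatives were any overlap of 1 base, peaks within 50 bases merged, the wider peaks alone (at or above the median width), peaks in no other gene, gene bodies extended by 1000 bases, and other run distances and numbers of neighbours in length. The genes named were the 6 members, the network list, the 5 lncRNA genes with the most peaks, genes inside Pvt1, and the 3 genes with the most similar profile, of which 1 is not reported here; by position, the first, last and widest peaks of members and the 3 longest runs of Pvt1. Genes that lead a comparison of length or position (Gli2, Cobl, Rabep1, Pitpnc1, Atrx, Macf1), other peaks and runs given by position, all values on Mga runs and on starts, and nearest-length values of members other than Pvt1 were picked with their values in view. Usp28 and Wdr5 were set apart from the network list with their counts in view. The members and lists were chosen with earlier results of these data known. In simulated data, counts and first 20% shares were recovered in 200 of 200 genes that overlap no other gene. This checks the counting code alone and says nothing of the deposited peaks. Python 3.11.15, pandas 2.3.3, numpy 2.4.6 and scipy 1.17.1 were used.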

Additional observations from a re-analysis of the deposited data

How the results depend on the processing

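For 16 results, 64 values were recomputed. With peaks under the median width left out, Pvt1 had 58 peaks (0.26 per kb), Mga 17 and the interval between Myc and Pvt1 0. The first 10% of the Pvt1 gene body held 29.7% of its peaks. Pvt1 had 37 runs at a distance of 500 bases and 15 at 2000 bases. The median-width filter and the narrower segment hold fewer peaks by construction. The other values stayed within 1.5 times the main count or within its 95% interval. Myc, Mycl and Max had 0 peaks in each setting run. The alternatives for Mga runs and its first 20% were chosen after seeing the data. The alternative that needed a peak score was not run, because the score field is empty. No paired analysis was possible because the list has no values per replicate. The depth behind a peak is unknown, which limits what a missing peak can show.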

Other observations

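Peaks just before the annotated start, as seen at Pvt1, were also counted in other genes. Of the other 207 genes with at least 50 peaks, 15 had a peak on the same strand, in no annotated gene, in the 10 kb before the start, and 8 had at least 3. Peaks in a neighbouring gene within that distance were left out. Genes without such a neighbour were not counted apart, so how common these peaks are cannot be read from this count. Kat6b, a histone acetyltransferase gene, had the most with 19, and Ntn1, whose peaks were distributed much like those of Pvt1, had 17. An empty end as long as that of Pvt1, in share of the gene body, was found in 9 of the 207; the median share after the last peak was 4.95%.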
